A study of Mus musculus with 2 samples.

Results

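Glucose enters the beta cell through facilitative transporters of the Slc2a family, is trapped as glucose-6-phosphate by hexokinases, and can be released again by the catalytic subunits of glucose-6-phosphatase. Measured here at this step were 8 genes of the 27179 in the deposited count table, found by their symbol: the transporters Slc2a1, Slc2a2 and Slc2a3, the hexokinases Hk1, Hk2 and Hkdc1, and the glucose-6-phosphatases G6pc2 and G6pc3. All 8 were present as a single row each.

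The transporters differ in affinity and tissue. Slc2a2 encodes GLUT2, the low-affinity transporter typical of rodent beta cells, whereas Slc2a1 encodes the widespread high-affinity GLUT1 and Slc2a3 the high-affinity GLUT3 of neurons. Hk1 and Hk2 encode high-affinity hexokinases that dock on mitochondria, and beta cells are known for low levels of both. G6pc2 encodes an islet-specific glucose-6-phosphatase of the endoplasmic reticulum that opposes glucose phosphorylation, and G6pc3 its widely expressed relative.

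RNA sequencing was done in MIN6 cells, a mouse insulinoma line used as a beta-cell model. Cells expressing C2cd4a-GFP, a fusion of C2cd4a with green fluorescent protein, were set against cells expressing control-GFP, with 1 library each, 72 to 96 h after adenoviral infection (multiplicity of infection 100). The labels describe infection with the C2cd4a-GFP virus for both samples, and the assignment to a group follows the title and the expressed construct stated for each. The comparison addresses which transcripts differ when C2cd4a is overexpressed in cultured beta cells. Per the labels both groups were infected, and uninfected cells were not analysed here.

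Counts assigned to genes totalled 30164106 for the C2cd4a-GFP library and 31039999 for the control-GFP library. C2cd4a itself had 49238 counts in C2cd4a-GFP cells and 133 in control-GFP cells, a 370-fold difference that goes the way the labels say, without telling construct from endogenous transcripts. With 1 library per condition there is no replicate check, and the differences below compare these libraries, not the conditions. Levels are given in CPM, counts relative to the scaled library size, or in RPKM, which divides CPM by the exon length in kilobases and alone serves to compare different genes. Each log2 ratio is C2cd4a-GFP over control-GFP, followed by a 95% interval that covers counting error only. A gene is said to have risen or fallen only where the authors' deposited table gives it an adjusted p under 0.05. The number of libraries behind that table is not stated in any source used here, and it may include these 2 libraries.

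Beta-cell markers dominated both libraries, and some of the ductal and endothelial markers had no counts while others did. The 8 beta-cell markers examined summed to 77819 CPM in C2cd4a-GFP cells and 88838 CPM in control-GFP cells. Pdx1, Mafa and Nkx6-1, transcription factors of beta-cell identity, had log2 ratios of 0.06, -0.05 and -0.01, and Ins1 was the 1 marker of the 8 past the size rule given below, at -0.91. No counts were found for the ductal markers Krt19 and Sox9 or the endothelial markers Cdh5 and Kdr, where a count of 0 allows up to 0.098 CPM. Of the same lists, ductal Krt7 had 1132 counts in C2cd4a-GFP cells and 1477 in control-GFP cells. Ductal Spp1 had 32 and 22, and endothelial Pecam1 66 and 59, in the same order. Glucagon (Gcg) had 2292 counts in C2cd4a-GFP cells and 1511 in control-GFP cells, a log2 ratio of 0.60 (0.51 to 0.69) that also passed the size rule, and Gcg rose in the authors' deposited table (DESeq2 adjusted p = 1.51e-05). The 5 markers of other islet endocrine cells summed to 76.5 CPM in C2cd4a-GFP cells and 50.3 CPM in control-GFP cells. The 4 ductal markers summed to 38 CPM in C2cd4a-GFP cells and 49.0 CPM in control-GFP cells, nearly all of it Krt7. Stromal, endothelial and macrophage lists each summed to between 1.47 and 2.19 CPM in C2cd4a-GFP cells and between 1.54 and 1.93 CPM in control-GFP cells. The part of these markers in the results below was not tested. In bulk RNA, fewer cells of a type and less RNA per cell cannot be told apart.

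The sequences just upstream of the 6 genes with measurable levels are shown first. Whether they bear on the differences given below was not tested. In them, capitals mark ACGTG, a form of the core of the hypoxia response element, read on either strand. The form GCGTG is left unmarked. Each run holds the 250 bases before an annotated transcription start, from RefSeq on build GRCm38.p6. They lie at chr4:119108495-119108744 (+ strand) for Slc2a1, chr3:28697653-28697902 (+) for Slc2a2, chr10:62340422-62340671 (- strand) for Hk1, chr10:62422458-62422707 (-) for Hkdc1, chr2:69219699-69219948 (+) for G6pc2 and chr11:102189449-102189698 (+) for G6pc3. Hk1 and G6pc2 each have a second annotated start, whose window is not printed. For Hk1 the start not printed, base 62379908, is the deposited start of its row. Its window had 51.3% GC and no ACGTG. The G6pc2 window not printed had 50.7% GC and no ACGTG either.
Slc2a1: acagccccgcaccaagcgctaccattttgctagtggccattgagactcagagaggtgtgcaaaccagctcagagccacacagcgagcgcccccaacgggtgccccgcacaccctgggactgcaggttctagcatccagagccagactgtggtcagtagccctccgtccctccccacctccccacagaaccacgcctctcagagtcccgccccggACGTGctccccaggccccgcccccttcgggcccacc
Slc2a2: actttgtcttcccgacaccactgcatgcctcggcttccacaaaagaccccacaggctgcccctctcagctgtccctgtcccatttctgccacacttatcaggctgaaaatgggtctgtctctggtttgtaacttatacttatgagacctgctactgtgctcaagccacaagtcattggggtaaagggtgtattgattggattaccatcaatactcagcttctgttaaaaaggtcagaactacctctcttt
Hk1: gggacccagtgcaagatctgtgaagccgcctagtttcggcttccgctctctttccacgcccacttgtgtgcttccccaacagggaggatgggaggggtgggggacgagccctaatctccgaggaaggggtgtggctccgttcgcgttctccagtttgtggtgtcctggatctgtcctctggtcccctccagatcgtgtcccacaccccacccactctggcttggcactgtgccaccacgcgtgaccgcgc
Hkdc1: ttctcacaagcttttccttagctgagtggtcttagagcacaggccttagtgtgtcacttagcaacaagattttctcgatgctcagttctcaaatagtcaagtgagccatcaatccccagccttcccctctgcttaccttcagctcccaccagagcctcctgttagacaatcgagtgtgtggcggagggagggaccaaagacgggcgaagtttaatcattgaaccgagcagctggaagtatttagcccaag
G6pc2: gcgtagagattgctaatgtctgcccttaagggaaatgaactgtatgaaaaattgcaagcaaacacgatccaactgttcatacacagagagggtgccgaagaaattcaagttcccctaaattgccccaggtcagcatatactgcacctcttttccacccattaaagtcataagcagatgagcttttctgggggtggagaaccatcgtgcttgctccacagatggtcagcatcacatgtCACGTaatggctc
G6pc3: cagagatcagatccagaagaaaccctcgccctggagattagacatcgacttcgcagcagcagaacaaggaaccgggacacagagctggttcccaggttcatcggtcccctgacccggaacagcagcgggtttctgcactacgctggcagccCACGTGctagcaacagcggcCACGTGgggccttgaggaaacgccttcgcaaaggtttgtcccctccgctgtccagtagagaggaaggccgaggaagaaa

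These windows differed in base composition and in the motif. Over the whole 300-base window, which adds 50 bases after the start, GC content was 65.3% for Slc2a1, 48.0% for Slc2a2, 63.3% for the Hk1 window shown, 52.3% for Hkdc1, 47.3% for the G6pc2 window shown and 59.7% for G6pc3. The median over all 32851 RefSeq windows was 52.7%. Windows were found for 7 of the 8 genes, and none for Slc2a3. ACGTG occurred in 5 of these 9 windows, and in 19.6% of all windows. Slc2a1 held it once, starting 36 bases before the transcription start, and Slc2a2 and Hkdc1 did not hold it. The Hk1 window shown held it only past the start, beginning at bases 8 and 17 with the start as base 1. G6pc3 held a pair of CACGTG palindromes, starting 99 and 79 bases before the start, each of which contains ACGTG on both strands, while CACGTG occurred in 7.15% of all windows and in no other window of these genes. GCGTG, the form left unmarked, occurred in 32.4% of all windows. Among those printed it occurred in Slc2a1, Hk1, Hkdc1 and G6pc3, in Hkdc1 and G6pc3 only past the start. TATAAA occurred in 13.6% of all windows and, among these genes, once in Slc2a1, beginning at base 29 on the same count. These matches describe letters in a window and nothing more.

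G6pc2 led in both libraries, and the order of the genes differed further down. It was by far the most abundant of the 8 genes per length, at 687 RPKM in C2cd4a-GFP cells and 763 RPKM in control-GFP cells, and ranked 61 in C2cd4a-GFP and 65 in control-GFP cells among 12759 genes. Slc2a2 followed at 70.8 RPKM in C2cd4a-GFP and 121 RPKM in control-GFP cells, and G6pc3 at 24.2 and 26.4 RPKM in the same order. Below them the order differed between the libraries. In C2cd4a-GFP cells Hk1 (5.13 RPKM) and Slc2a1 (4.99 RPKM) did not differ beyond counting error, at a per-length ratio of Hk1 to Slc2a1 of 1.03 (0.907 to 1.17). In control-GFP cells Slc2a1 (17.2 RPKM) stood 5.10-fold (4.59 to 5.68) above Hk1 (3.37 RPKM). Hkdc1 came next in both, at 0.506 RPKM in C2cd4a-GFP and 0.235 RPKM in control-GFP cells. Hk2 and Slc2a3 were at the bottom of both libraries and could not be ordered against each other, with a per-length ratio of Hk2 to Slc2a3 of 1.68 (0.383 to 10.0) in C2cd4a-GFP cells and of Slc2a3 to Hk2 of 1.39 (0.259 to 7.48) in control-GFP cells.

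**Figure D1:**
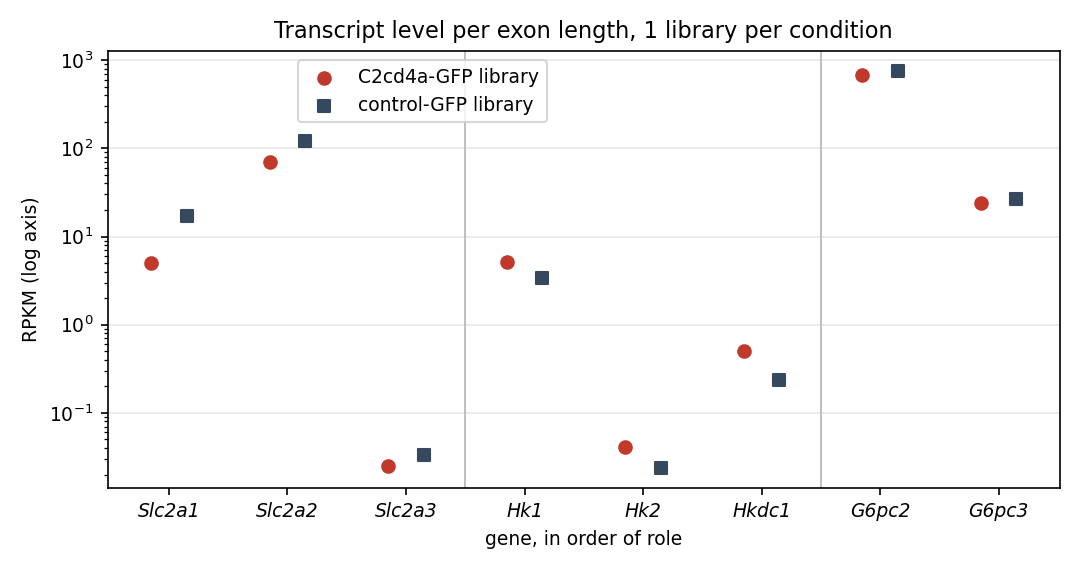
Level of each gene in RPKM (log axis) in the C2cd4a-GFP library (circles) and the control-GFP library (squares), 1 library each, with vertical lines between transporters, hexokinases and glucose-6-phosphatases. Slc2a1 stands at 4.99 RPKM in C2cd4a-GFP and 17.2 RPKM in control-GFP cells, and the hexokinases lie far below G6pc2 in both.

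Slc2a1 and Slc2a2 transcripts were lower in the C2cd4a-GFP library, and Hk1 and Hkdc1 transcripts higher. By size, a gene of at least 1 CPM on average was called when its ratio was at least 1.5 either way and its interval left out equality. Of the 8 genes 6 reached 1 CPM, and of these 2 were called higher (Hk1 and Hkdc1) and 2 lower (Slc2a1 and Slc2a2). Over all 12759 genes, 4.23% were called higher and 4.23% lower, 8.46% in all, and the median log2 ratio was -0.01. An adjusted p is given for 7 of the 8 genes in the authors' deposited table, where 2 rose and 3 fell. Over its 14619 genes with an adjusted p, 7.00% rose and 6.58% fell, 13.6% in all.

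Slc2a1 had the largest difference of the 8. Its row (gene ID 20525, mm10 chromosome 4, 119108745 to 119137330, + strand, 10 exons) held 393 counts in C2cd4a-GFP cells and 1353 in control-GFP cells, or 12.8 and 44.2 CPM. The level in C2cd4a-GFP cells was 3.45-fold lower, and the log2 ratio of -1.79 (-1.95 to -1.62) ranked 9 from the lowest among 12759 genes. The authors' deposited table has Slc2a1 at -1.55 on its log2 scale, so that it fell (DESeq2 adjusted p = 7.13e-23). An opposite-strand gene model, Gm19660, shares 623 exon bases with Slc2a1 and had 0 counts in both libraries.

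Slc2a2 was lower too, but by less. Its row (gene ID 20526, chromosome 3, 28697903 to 28728361, + strand, 11 exons) held 5574 counts in C2cd4a-GFP cells and 9498 in control-GFP cells, or 182 and 311 CPM. The level was thus 1.71-fold lower, with a log2 ratio of -0.77 (-0.82 to -0.72), at rank 255 from the lowest. The authors' deposited table gives -0.81 for Slc2a2 (DESeq2 adjusted p = 7.6e-14), so that it fell there as well.

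Slc2a3 was almost unread. Its row (gene ID 20527, chromosome 6, 122727809 to 122742745, - strand, 10 exons) held 3 counts in C2cd4a-GFP cells and 4 in control-GFP cells. The log2 ratio of -0.42 had an interval from -3.19 to 2.15, so a difference was not detectable at this depth. For Slc2a3 the authors' deposited table holds a log2 fold change of 0.26 and no adjusted p.

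The make-up of the transporter transcripts differed between the libraries, and this measure does not depend on how they were scaled. It can still depend on the trends across genes with exon length and GC content described below. With those trends removed, the log2 ratios were -1.64 for Slc2a1 and -0.90 for Slc2a2, against -1.79 and -0.77 before. These ratios lay closer together without the trends, so the shift in balance given below would be smaller. The shares were not recomputed without them. Slc2a2 made up 93.4% (92.7 to 94.0) of the counts per kilobase of the 3 transporters in C2cd4a-GFP cells and 87.5% (86.9 to 88.1) in control-GFP cells. Slc2a1 made up 6.58% (5.98 to 7.24) in C2cd4a-GFP cells and 12.5% (11.8 to 13.1) in control-GFP cells. Per exon length, Slc2a2 stood 14.2-fold above Slc2a1 in C2cd4a-GFP cells and 7.03-fold in control-GFP cells. The balance of Slc2a1 to Slc2a2 shifted by -1.01 on the log2 scale (-1.18 to -0.85), and by -0.74 in the normalized values of the authors' deposited table. Together the 3 transporters stood at 75.8 RPKM in C2cd4a-GFP and 138 RPKM in control-GFP cells, a ratio of 0.549.

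**Figure D2:**
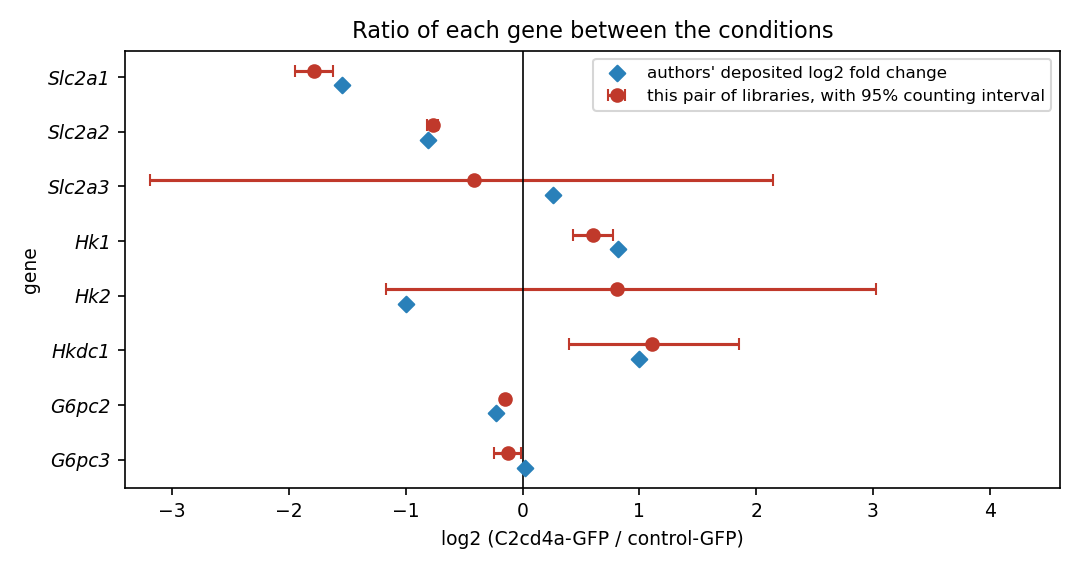
log2 ratio of C2cd4a-GFP over control-GFP for each gene, from the pair of libraries (circles with 95% counting intervals) and from the authors' deposited table (diamonds, no interval). Slc2a1 and Slc2a2 lie left of 0 and Hk1 and Hkdc1 right of it by both measures, while Slc2a3, Hk2 and G6pc3 have opposite signs.

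Hk1 carried nearly all hexokinase transcripts among the 3 genes and was higher in the C2cd4a-GFP library. Its row (gene ID 15275, chromosome 10, 62268855 to 62379908, - strand, 23 exons) held 708 counts in C2cd4a-GFP cells and 465 in control-GFP cells, or 23.1 and 15.2 CPM. The ratio of 1.52 (1.35 to 1.71) lay just inside the size rule, with Slc2a2, 1.71-fold lower, the next nearest of the called genes and G6pc2, 1.11-fold lower, the nearest of those not called among the 6 genes that reached 1 CPM. In the authors' deposited table Hk1 rose by 0.82 on the log2 scale (DESeq2 adjusted p = 1.81e-06), against 0.60 (0.43 to 0.78) in this pair.

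Hkdc1, whose product carries hexokinase domains and binds mitochondria, is a weakly expressed neighbour of Hk1. Its row (gene ID 216019, chromosome 10, 62383137 to 62422457, - strand, 18 exons) lies 3229 bases upstream of Hk1 on the same strand. It held 54 counts in C2cd4a-GFP cells and 25 in control-GFP cells, or 1.76 and 0.818 CPM, a 2.16-fold difference (1.32 to 3.62). It reached the minimum of 1 CPM through the C2cd4a-GFP library, so its place among the called genes rests in part on that library's own value. In the authors' deposited table Hkdc1 rose by 1.0 on the log2 scale (DESeq2 adjusted p = 0.0289).

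Hk2, the hexokinase of muscle and fat that hypoxia induces, was barely present. Its row (gene ID 15277, chromosome 6, 82725025 to 82774454, - strand, 18 exons) held 7 counts in C2cd4a-GFP cells and 4 in control-GFP cells. The log2 ratio was 0.81 (-1.17 to 3.03), whereas the authors' deposited table gives -1.0 for Hk2 (DESeq2 adjusted p = 0.436), from normalized values of 4 for C2cd4a-GFP and 9 for control-GFP. No direction can be given for it at this depth.

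The hexokinase make-up did not differ beyond counting error. Hk1 made up 90.3% (87.8 to 92.4) of the counts per kilobase of the 3 genes in C2cd4a-GFP cells and 92.9% (89.9 to 95) in control-GFP cells, and Hkdc1 8.92% (6.91 to 11.4) and 6.46% (4.42 to 9.37) in the same order. The balance of Hk1 to Hkdc1 shifted by -0.50 on the log2 scale, with an interval from -1.21 to 0.20. Together the 3 genes stood at 5.68 RPKM in C2cd4a-GFP and 3.63 RPKM in control-GFP cells, a ratio of 1.56 and opposite in direction to that of the transporters.

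**Figure D3:**
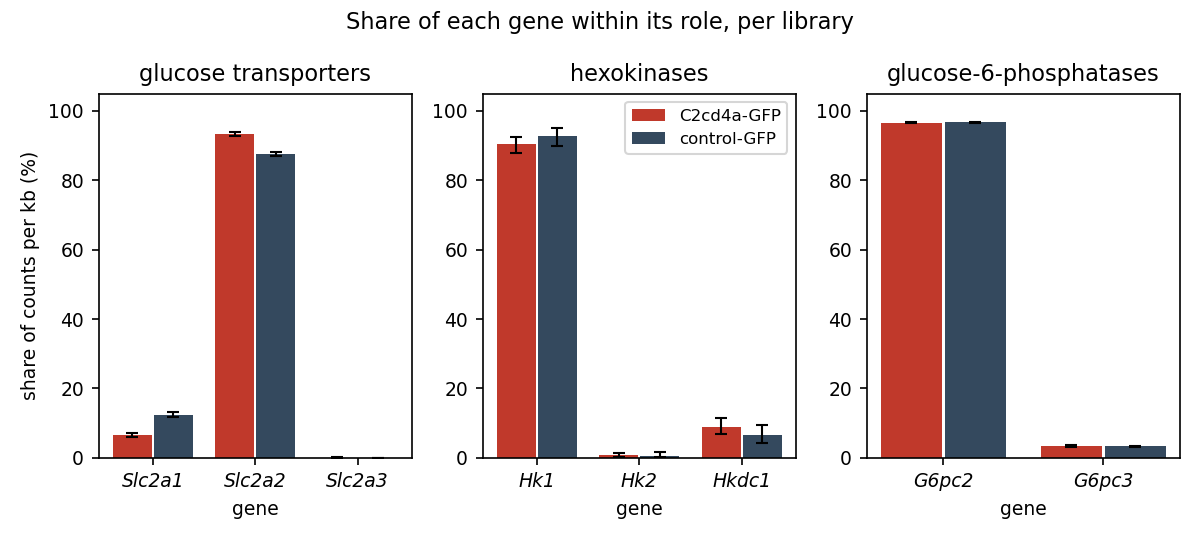
Share of each gene in the counts per kilobase of its role (percent), C2cd4a-GFP library left and control-GFP library right in each pair, with 95% counting intervals. The Slc2a1 share is 6.58% in C2cd4a-GFP and 12.5% in control-GFP cells, while G6pc2 holds 96.6% and 96.7% of its role.

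The glucose-6-phosphatases differed little. G6pc2 (gene ID 14378, chromosome 2, 69219998 to 69227988, + strand, 5 exons) held 42290 counts in C2cd4a-GFP cells and 46922 in control-GFP cells, or 1381 and 1534 CPM. Its log2 ratio was -0.15 (-0.17 to -0.13), a 1.11-fold lower level that did not meet the size rule. The authors' deposited table has G6pc2 at -0.23 on its log2 scale, so that it fell, with a DESeq2 adjusted p of 0.0473 close to the threshold.

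G6pc3 (gene ID 68401, chromosome 11, 102189699 to 102194081, + strand, 6 exons) held 1142 counts in C2cd4a-GFP cells and 1245 in control-GFP cells, or 37.3 and 40.7 CPM. Its log2 ratio was -0.13 (-0.24 to -0.01), against 0.02 for G6pc3 in the authors' deposited table (DESeq2 adjusted p = 0.958), so the direction is not settled. Across genes, which are not independent replicates, the log2 ratio was higher for longer exon length (Spearman's rho 0.347) and lower for higher GC content (rho -0.471). The transcript of G6pc3 has 57.9% GC, and its log2 ratio was 0.16 once these trends were removed. The balance of G6pc3 to G6pc2 shifted by 0.03 on the log2 scale (-0.09 to 0.14), and G6pc2 made up 96.6% (96.4 to 96.8) of the pair per length in C2cd4a-GFP and 96.7% (96.5 to 96.8) in control-GFP cells.

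**Figure D4:**
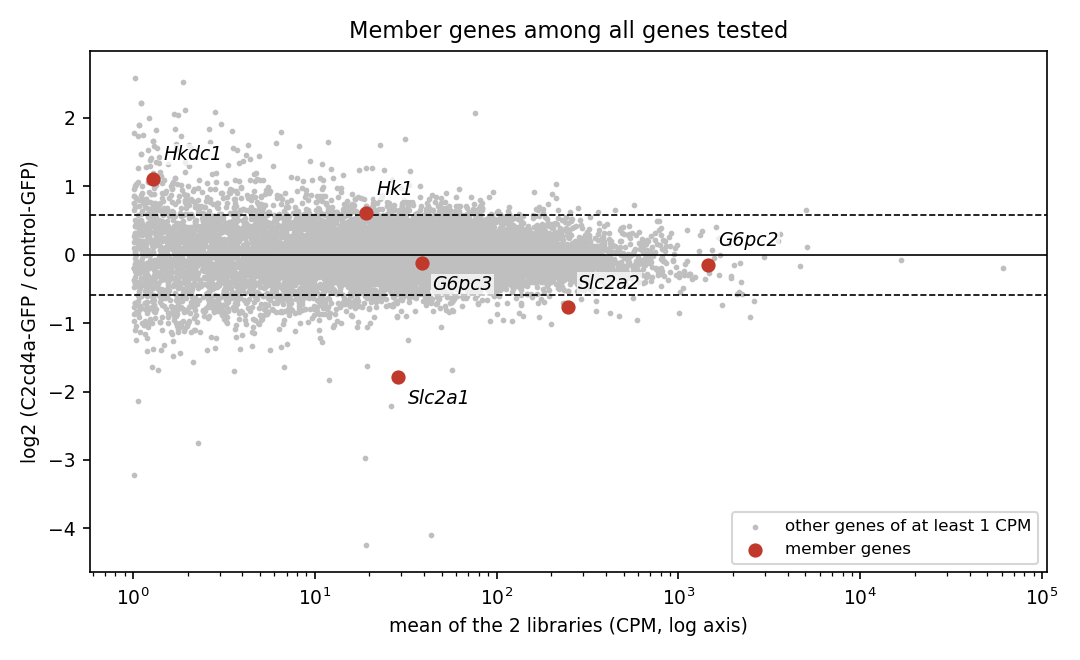
log2 ratio of C2cd4a-GFP over control-GFP against the mean of both libraries in CPM (log axis) for the 12759 genes of at least 1 CPM, with C2cd4a left out of the plot. Grey points are other genes, filled red circles are the 6 genes of glucose entry that passed the filter, and dashed lines mark a ratio of 1.5 either way. Slc2a1 lies at -1.79, and G6pc2 and G6pc3 lie near 0 at -0.15 and -0.13.

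Other genes of glucose entry and glucose-6-phosphate turnover were read beside the 8. Of 44 such genes in 6 lists, 33 reached 1 CPM, and of these 1 was called higher and 3 lower, against 4.23% each way over all genes, with a median log2 ratio of -0.10 beside -0.01 over all genes. By the authors' deposited table, 2 of the 36 with an adjusted p rose and 6 fell, against 7.00% and 6.58% over all genes.

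Of the 9 other Slc2a transporters, 6 reached 1 CPM, 2 were called lower and 0 higher (4.23% each way over all genes), and the median log2 ratio was -0.54, beside -0.01 over all genes. Slc2a8, which encodes the intracellular transporter GLUT8, had 599 counts in C2cd4a-GFP cells and 1130 in control-GFP cells, a log2 ratio of -0.92 (-1.06 to -0.77), and Slc2a9, a urate transporter, had -0.63 (-0.90 to -0.37). Both fell in the authors' deposited table, each at -0.68 on its log2 scale, and none of the rest of these 9 with an adjusted p passed there. Slc2a5, the fructose transporter, was the most abundant of these at 57.8 RPKM in C2cd4a-GFP and 68.2 RPKM in control-GFP cells, and its log2 ratio of -0.24 (-0.29 to -0.19) did not meet the size rule. Slc2a4, the insulin-responsive GLUT4, had only 48 counts in C2cd4a-GFP and 68 in control-GFP cells. Of 7 sodium-glucose cotransporter genes, only Slc5a10 reached 1 CPM, at -0.13 (-0.76 to 0.50). Slc5a1, which encodes the intestinal cotransporter SGLT1, had 27 counts in C2cd4a-GFP and 34 in control-GFP cells. Slc5a9 fell in the authors' deposited table (-1.53 on the log2 scale, DESeq2 adjusted p = 0.044), on 15 counts in C2cd4a-GFP and 24 in control-GFP cells of this pair.

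Among genes that make, move or use glucose-6-phosphate, Gpi1 differed most. Of 13 such genes 11 reached 1 CPM, 1 was called lower and 0 higher, a share near the 8.46% called over all genes. The authors' deposited table has 3 of them that fell and 0 that rose, where 6.58% of all genes fell. Gpi1, the isomerase that passes glucose-6-phosphate into glycolysis, had 9156 counts in C2cd4a-GFP cells and 16448 in control-GFP cells, a log2 ratio of -0.85 (-0.88 to -0.81). Slc37a4, which carries glucose-6-phosphate into the endoplasmic reticulum to the phosphatases, was at -0.45 (-0.52 to -0.37) and fell by 0.41 on the log2 scale in the authors' deposited table. Pgm2, a phosphoglucomutase, was at -0.34 (-0.40 to -0.28) and likewise fell by 0.34 in the authors' deposited table. Pgls, which acts in the pentose phosphate pathway, was at -0.21 (-0.28 to -0.13). The authors' deposited table gives 0.18 for Pgls (DESeq2 adjusted p = 0.698), so its direction is not settled. G6pdx, the entry enzyme of that pathway, was at -0.10 (-0.18 to -0.02). The liver-type G6pc had 2 counts in C2cd4a-GFP and 0 in control-GFP cells, and Hk3 had 4 and 7 in that order.

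Of the genes that govern where transporters and hexokinases sit, or that regulate Slc2a2 and G6pc2, Arrdc4 alone was called by size. Over all genes, 8.46% were called either way. Arrdc4, an arrestin-like protein that promotes internalisation of glucose transporters, had 556 counts in C2cd4a-GFP cells and 332 in control-GFP cells, a log2 ratio of 0.74 (0.54 to 0.94). It was the 1 gene called of 7 in the trafficking list, and it rose by 0.72 on the log2 scale in the authors' deposited table. Its close relative Txnip was at 0.08 (0.03 to 0.13), and the retromer subunit genes Vps35 and Vps29 at 0.24 and -0.02. None of the 3 Vdac genes, whose products are the mitochondrial docking site of hexokinases, was called, with Vdac1 at -0.24 and Vdac3 at 0.14. Of 5 regulators none was called by size, and Neurod1 alone rose in the authors' deposited table (log2 fold change 0.42), at 0.37 (0.31 to 0.44) in this pair. Over all genes with an adjusted p there, 7.00% rose.

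**Figure D5:**
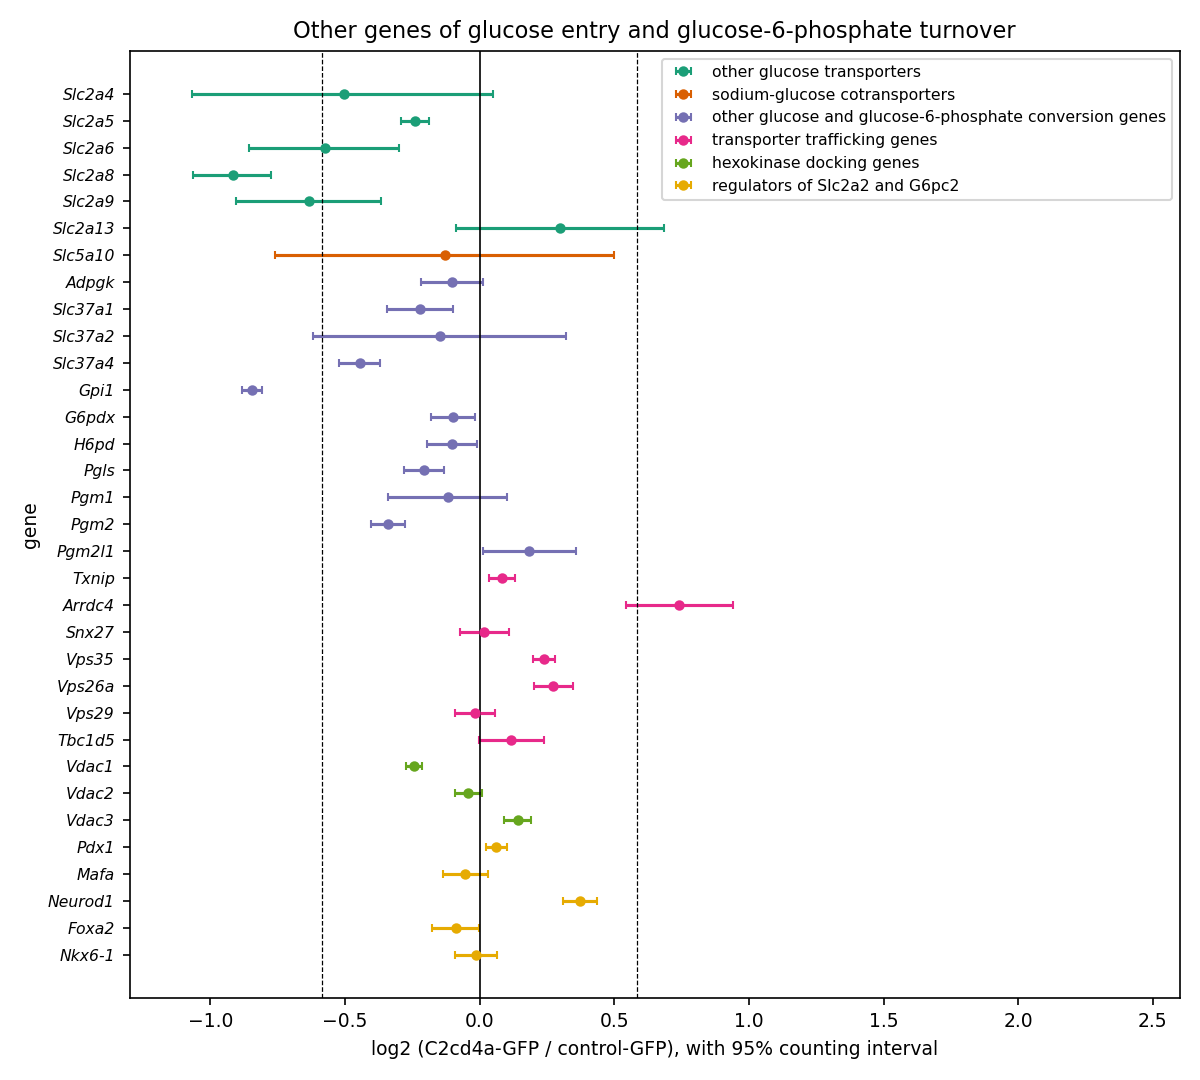
log2 ratio of C2cd4a-GFP over control-GFP with 95% counting intervals for the 33 other genes of glucose entry and glucose-6-phosphate turnover of at least 1 CPM, coloured by list, with dashed lines at a ratio of 1.5 either way. Slc2a8, Slc2a9 and Gpi1 lie beyond the left line and Arrdc4 beyond the right one.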

How the data were processed

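Poly-A selected, strand-aware libraries of MIN6 cells were read as 42 bp pairs, per the labels' protocols. The tools listed in the submitters' processing notes are featureCounts, DESeq2 1.14.1, Subread 1.5.2 and STAR 2.5.2b, and the build is mm10, with no role stated for any. The authors deposited raw counts per gene with exon length and coordinates, per the file headers. Strand use in counting is not given in these sources, so reads of overlapping genes cannot be told apart. The authors' deposited log2 fold change equals the log2 ratio of their normalized values, with 1 added to each, within 0.005, in 100% of 26328 genes whose symbol was unique. Those normalized values, treated as a score, are rounded by the authors to 1 whole number per gene and condition. The authors' deposited p-values and adjusted p-values are taken to be from DESeq2, after the sheet title.

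Counts were scaled with TMM (edgeR 4.0.16, R 4.3.3; factors 1.015 and 0.985 for C2cd4a-GFP and control-GFP). Ratios carry a 95% Clopper-Pearson interval (exact), given each gene's summed counts. Shares carry a 95% interval on the logit scale and balances one on the log2 scale, both from Poisson counts. Reads without molecular identifiers are not independent molecules, so all intervals, and the limit of 3 counts read from a 0, cover counting error only. No p-value was computed, since each condition has 1 library. Calculations were tested on simulated data (Python 3.11.15, scipy 1.17.1).

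The genes, their lists and all tests were chosen with earlier results of these data known. Named were the 8 genes, C2cd4a, and from each list the genes called by size and the 2 most abundant per length. Others, such as Slc37a4, Pgm2, Slc5a9, Neurod1, Slc2a4, G6pdx, G6pc, Hk3, Txnip and the markers, were added after their values were seen. The acinar marker list and 1 marker of other islet cells are not reported here. With 2 libraries, no gene of like pattern can be named. Alternatives covered the scaling, thinning, a prior count, the filter, the threshold, exon length and GC content (GENCODE M21 transcripts, lowess span 0.3), and the authors' values.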

Additional observations from a re-analysis of the deposited data

How the results depend on the processing

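The direction of Slc2a1, Slc2a2, Hk1, Hkdc1 and G6pc2 was the same under every alternative run, and Slc2a1, Slc2a2, Hk1 and Hkdc1 were called by size in the same direction under the scalings, thinning, removal of the trends and no filter. A minimum of 5 CPM left Hkdc1 out and gave 306 higher and 296 lower genes of all. A ratio of at least 2 kept Slc2a1 and Hkdc1 only, with 116 higher and 88 lower genes. Removing the trends with exon length and GC content gave 348 lower genes and log2 ratios of -0.90 for Slc2a2 and -0.18 for G6pc2, and it reversed G6pc3 to 0.16. Scaling by total counts gave -0.11 for G6pc2.

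The authors' deposited normalized values gave log2 ratios of -1.55 for Slc2a1, 0.82 for Hk1 and -0.23 for G6pc2, and reversed G6pc3 to 0.018. They moved the balance of Slc2a1 to Slc2a2 to -0.74 and of G6pc3 to G6pc2 to 0.25. For Hk1 to Hk2 they gave 1.99, against -0.20 (-1.98 to 1.58) in this pair. With only 4 for Hk2 in C2cd4a-GFP and 9 in control-GFP, they give no direction for that balance. In C2cd4a-GFP they gave shares of 8.24% for Slc2a1, 91.7% for Slc2a2, 93.3% for Hk1, 6.30% for Hkdc1, 96.1% for G6pc2 and 3.95% for G6pc3. Without division by length, G6pc2 held 97.4% and G6pc3 2.63% in C2cd4a-GFP, and 97.4% and 2.58% in control-GFP. The cause of these shifts was not tested. Depth limits Slc2a3 and Hk2, which had under 10 counts in each library. No paired analysis was possible because each condition has 1 library.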

Other observations

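Genes within 100000 bases of each of the 8 genes were looked at after the values above were seen. Described are those next to the hexokinase pair on chromosome 10 and next to G6pc2 on chromosome 2. Of the rest, Hdac5 (-0.73) and Asb16 (-0.97) near G6pc3 and AU022252 (-0.67) near Slc2a1 were called lower by size. Over all genes, 4.23% were called lower. Around Hk1 and Hkdc1, Tspan15, a tetraspanin gene 37637 bases from Hk1, had 917 counts in C2cd4a-GFP cells and 750 in control-GFP cells, a log2 ratio of 0.29 (0.15 to 0.43). By the authors' deposited table it rose by 0.34 on the log2 scale (DESeq2 adjusted p = 0.0448). The RNA helicase gene Supv3l1, 6921 bases from Hkdc1, was at 0.03 (-0.09 to 0.15), and Vps26a, a retromer subunit gene, at 0.27 (0.20 to 0.35). Neither gene passed by the authors' deposited table. Hk1os, on the opposite strand within the span of Hk1, had 2 counts in C2cd4a-GFP cells and 0 in control-GFP cells, and shares no exon bases with Hk1.

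Spc25, a kinetochore gene whose span lies 13808 bases from the deposited start of G6pc2, on the opposite strand, was about as abundant as G6pc2. It had 31770 counts in C2cd4a-GFP cells and 38567 in control-GFP cells, or 656 and 797 RPKM, where G6pc2 had 687 and 763 RPKM. The genes of its 3 partners in the NDC80 complex lay far lower, with Ndc80 at 77.2 RPKM in C2cd4a-GFP and 60.5 RPKM in control-GFP cells, Nuf2 at 64.3 and 57.1 RPKM, and Spc24 at 44.1 and 56.9 RPKM in the same order. The log2 ratio of Spc25 was -0.28 (-0.30 to -0.26), and by the authors' deposited table it fell by 0.30 on the log2 scale (DESeq2 adjusted p = 0.0446). RefSeq also lists a start of G6pc2 at base 69211073 of chromosome 2, between the span of Spc25 and the deposited start of G6pc2. The source of the Spc25 counts was not tested.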
